A study of Homo sapiens with 24 samples.

Results

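The genes described here encode potassium channel subunits, and they were read from 24 RNA-seq libraries of H9 cells, an established line of human embryonic stem cells. They are the protein-coding genes whose symbol starts with KCN, followed by letters and a number, and whose normalised read count reached 10 in at least 3 of the 24 libraries. Of 84 such symbols in the table, 71 passed and 13 did not; 15217 protein-coding genes of the table passed the same minimum. A normalised read count is the number of reads of a gene divided by 1 scaling factor per library, and every level below is in this unit unless stated otherwise. The minimum used levels only, and no difference between groups. By their third-highest library, the genes just inside it were KCNJ9 at 11.2, KCNT1 at 11.3 and KCNH1 at 16, and those just outside were KCNA7 at 9.30, KCNC1 at 8.77 and KCNJ1 at 8.77. No gene passed through the illuminated engineered libraries alone, and 11 passed only through libraries of other groups: KCNA1, KCNA3, KCNAB1, KCNF1, KCNH4, KCNJ11, KCNJ9, KCNK7, KCNK9, KCNN4 and KCNT1.

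The libraries formed 8 groups of 3. Engineered cells carried optoWnt, in which the light-responsive domain Cry2 is fused to the cytoplasmic part of the Wnt co-receptor LRP6 and is made together with mCherry; the other cells carried no such receptor but held an eGFP transcript, and are called wild type in the labels. All cells were H9 grown in E8 medium, with or without 48 h of light at 0.8 µW/mm². In monoculture the groups were Cry2 dark, Cry2 light, wt dark and wt light. Mixtures of both kinds of cell at equal numbers were kept in the dark or under light and sorted, which gave mCh dark and mCh light (engineered, mCherry-positive) and GFP dark and GFP light (wild type, GFP-positive). Each biological replicate pooled several wells, per the labels. All cells are 1 line, so p-values measure the spread between these cultures. The sources used here do not say whether the engineered line is 1 clone.

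Potassium channels let potassium leave or enter a cell along its gradient, and so set the resting membrane potential, repolarise excitable cells and take part in volume control and cell cycle progression. Each channel is built of pore subunits: voltage-gated (Kv), inward rectifier (Kir), two-pore-domain leak (K2P), or calcium- and sodium-activated. Some Kv subunits form no channel by themselves and only modify others, and auxiliary subunits change gating or trafficking. Pluripotent stem cells and early embryonic cells are not excitable, yet transcribe many of these genes. Canonical Wnt signalling acts through beta-catenin and the TCF/LEF factors, and drives pluripotent cells toward primitive streak and mesoderm, which are marked by T-box factors.

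Promoter sequences were examined as a description, without a test. RefSeq (GRCh38.p14) gave at least 1 window of 250 bases before a transcription start for 50 of the 71 genes, 76 windows in all. CTTTGAA or CTTTGAT, a TCF/LEF core, was found on either strand in 5 of the 76 windows (6.58%), against 5.94% of the 35116 windows of all genes. AGGTGTGA, a motif bound by T-box factors, was found in 1 (1.32%), against 0.786% of all windows. Both shares are near those of all windows. Below are the windows of KCNJ5 and KCNH5, which rose under light in engineered cells and hold neither motif, and of KCNK2 and KCNK10, which fell and hold one. They are examples, and most windows of the genes that fell in both engineered comparisons hold neither motif. Capitals mark the motif matches, read 5′ to 3′ on the strand of the gene. None of these windows holds a base of an exon in GENCODE 29.
KCNJ5, chr11:128891106-128891355, plus strand: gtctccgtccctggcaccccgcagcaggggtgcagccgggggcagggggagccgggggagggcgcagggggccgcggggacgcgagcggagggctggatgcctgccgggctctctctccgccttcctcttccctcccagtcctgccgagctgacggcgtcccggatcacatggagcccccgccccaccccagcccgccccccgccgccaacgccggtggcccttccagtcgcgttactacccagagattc
KCNH5, chr14:63045459-63045708, minus strand: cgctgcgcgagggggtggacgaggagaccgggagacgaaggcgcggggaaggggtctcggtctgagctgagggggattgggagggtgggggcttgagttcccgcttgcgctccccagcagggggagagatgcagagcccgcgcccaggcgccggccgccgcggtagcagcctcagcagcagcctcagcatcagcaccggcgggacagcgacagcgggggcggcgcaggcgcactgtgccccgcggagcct
KCNK2, chr1:215005292-215005541, plus strand: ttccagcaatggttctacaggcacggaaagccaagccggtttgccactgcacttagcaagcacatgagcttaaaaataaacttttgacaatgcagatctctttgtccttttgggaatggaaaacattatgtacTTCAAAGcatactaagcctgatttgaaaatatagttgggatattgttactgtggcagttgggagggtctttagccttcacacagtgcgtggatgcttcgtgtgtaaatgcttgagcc
KCNK10, chr14:88270912-88271161, minus strand: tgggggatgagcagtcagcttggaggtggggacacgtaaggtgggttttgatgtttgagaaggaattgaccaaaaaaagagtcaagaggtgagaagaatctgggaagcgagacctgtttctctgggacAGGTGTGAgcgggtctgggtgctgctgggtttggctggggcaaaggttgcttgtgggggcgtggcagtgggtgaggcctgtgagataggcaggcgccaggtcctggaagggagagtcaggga
The KCNK2 window holds the reverse complement of CTTTGAA, which begins 117 bases before the start, and the KCNK10 window holds AGGTGTGA beginning 122 bases before it. A second window of KCNK10 and single windows of KCNAB1, KCNJ4 and KCNMB3 held the TCF/LEF core. The other window of KCNK2 held neither motif. Among genes that rose in both engineered comparisons below, 0 of 16 windows (11 genes) held either motif; among those that fell in both, 3 of 35 windows (23 genes) held the TCF/LEF core, or 8.57%. The median GC content was 74.2% for windows of the genes that rose, 63.6% for those that fell, 64.4% for the rest and 58.0% over all windows. A match is a string of letters and not a bound site, and the absence of a match covers only these letters in this window.

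Between 28211236 and 56620471 reads per library were assigned to genes. The 6 dark monoculture libraries were all shallower than the 6 illuminated ones, so depth cannot be told apart from light there; the counts of genes below were also computed at equal depth. Every engineered library held 34166 to 61394 normalised reads of the construct, against 219 to 427 in every wild-type library, which fits the sample titles. The 6 pluripotency markers (POU5F1, SOX2, NANOG, LIN28A, DPPA4 and TDGF1) were all present in the dark and summed to 229622 to 238525 in Cry2 dark and 66034 to 68210 in Cry2 light; all 6 fell. Over the same groups the 6 primitive streak and mesoderm markers (TBXT, MIXL1, EOMES, TBX6, MSGN1 and MESP1) went from 193 to 245 up to 129427 to 132081, and all 6 rose. Lists of other cell types moved unevenly. The 8 neural markers summed to 2423 to 2598 and 4356 to 4582, with 2 higher (SYT1, 1342 to 4043, and STMN2) and 2 lower (RBFOX3, 1050 to 302, and ELAVL3) of 6 tested. The 6 cardiomyocyte markers summed to 452 to 569 and 489 to 533, with 2 higher (MYL7, 90.1 to 337, and MYH6) and 2 lower (RYR2, 270.3 to 19.2, and ACTN2) of 4 tested. COL1A2, the 1 of 3 fibroblast markers analysed here, rose from 4861 to 48218. The 3 endothelial markers summed to 334 to 433 and 260.1 to 333 (1 lower, CDH5, of 2 tested), the 3 skeletal muscle markers to 778 to 949 and 79.9 to 116 (1 lower, ACTA1, of 1 tested), and the 3 blood markers to at most 24.8. The part of such markers in the results on channel genes was not tested. In these bulk libraries, fewer cells of a type and less RNA per cell cannot be told apart. Within groups, 1 wt light library (replicate 2) and 1 mCh light library (a) differed more from their fellows than other libraries did, and, in monoculture, 33.7% of the bases read were G or C in the first wt dark library, against 50.5% to 51.8% in the others. Results were repeated without each library.

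Light in engineered monocultures changed potassium channel genes in both directions. Of the 69 genes tested, 13 rose and 35 fell in Cry2 light against Cry2 dark (limma, adjusted p under 0.05), which is 69.6%, where 58.4% of all 19444 genes tested passed the same threshold (28.1% higher and 30.4% lower). The median log2 difference was -0.61 over the channel genes and -0.01 over all genes tested, and the median size of the difference, without its sign, was 1.38 against 0.51. The groups did not overlap for 53 of the 69, against 65.7% of all genes. In mCh light against mCh dark, 13 rose and 34 fell of 70 tested, or 67.1%, against a background of 55.9% (27.2% higher and 28.7% lower), with a median of -0.48 over the channel genes and -0.01 over all genes; 48 did not overlap between groups, against 58.4% of all genes. KCNJ5 rose most and KCNJ11 fell most in both cultures. A gene that reached the minimum only through other groups was low in illuminated engineered cells by that choice. Without the 9 of them tested in monoculture, 13 rose and 27 fell of 60 (66.7%, with a median of -0.30), where 57.9% of all genes with the same exclusion were called (31.2% higher and 26.7% lower, median 0.06). Without the 10 tested in co-culture, 13 rose and 26 fell of 60 (65.0%, median -0.19), against 55.2% of all genes (30.3% higher and 24.9% lower, median 0.06). The excess of falling over rising genes and the size of the median thus depend in part on the minimum, and these counts are no test of the set. Light changed most genes of these cells, so the share called is read against that background. Without mCh light library a, 16 rose and 33 fell of 69 tested in co-culture, where 5428 rose and 6047 fell of all 19008 genes.

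**Figure D1:**
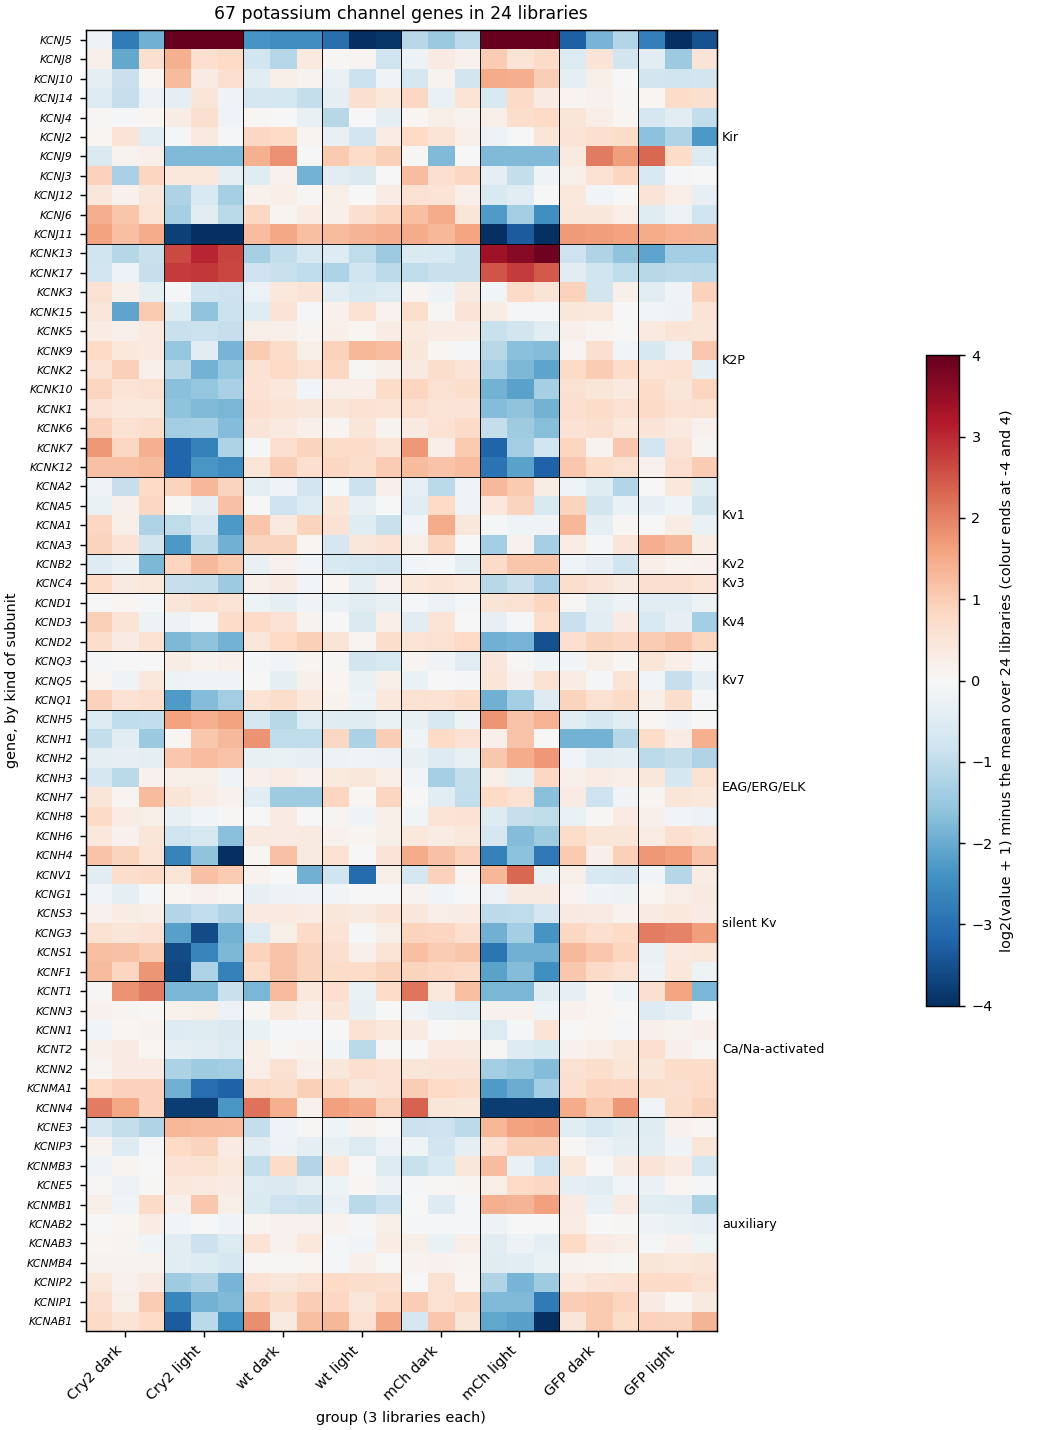
Rows are 67 of the 71 potassium channel genes, grouped by kind of subunit, and columns are the 24 libraries; colour gives log2(normalised read count + 1) minus the gene's mean over all libraries, cut at -4 and 4. The Cry2 light and mCh light columns stand apart from the 6 other groups, with KCNJ5, KCNK13 and KCNK17 deepest red and KCNJ11 and KCNN4 deepest blue.

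Inward rectifier subunits showed both extremes. KCNJ5 (ENSG00000120457, chr11:128891356-128921035), which forms the acetylcholine-gated channel of the heart together with KCNJ3, was at 22.2, 2.83 and 5.95 in the 3 Cry2 dark libraries and at 4500.3, 4505 and 4153 in the 3 Cry2 light libraries. The groups lay far apart: the mean rose 425-fold, from 10.3 ± 10.4 to 4386 ± 202 (SD, n = 3), and the log2 difference was 9.01 ± 0.55 (SE; limma, adjusted p = 1.33e-09). The ratio depends on 1 dark library: without Cry2 dark replicate 1 the dark mean was 4.39 and the rise 999-fold. Sorted cells gave 11.1, 8.37 and 11.9 in mCh dark and 4656, 5025 and 4951 in mCh light (log2 8.75 ± 0.52, adjusted p = 1.51e-09). No wild-type library held more than 10.7, illuminated or not, and the light effect exceeded that of wild-type cells by 10.43 ± 0.78 in monoculture (adjusted p = 2.81e-08) and by 10.30 ± 0.73 in co-culture (adjusted p = 2.99e-08).

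The partners with which KCNJ5 can assemble did not rise with it. KCNJ3 was at 23.5, 4.24 and 22.3 in Cry2 dark and 16.3, 16.2 and 8.87 in Cry2 light, overlapping ranges with a log2 difference of -0.01 ± 0.63 (adjusted p = 0.991). In co-culture KCNJ3 fell from 29.1, 19.5 and 22.1 to 8.77, 5.66 and 10.5, without overlap (log2 -1.42 ± 0.37, adjusted p = 0.00431). KCNJ6, another subunit of G protein-gated channels, fell from 80.9, 63.6 and 43.2 to 10.9, 21.1 and 13.3 in monoculture (log2 -1.99 ± 0.34, adjusted p = 0.000134) and from 67.6, 82.8 and 41.1 to 5.26, 10.5 and 4.51 in co-culture (log2 -3.08 ± 0.36, adjusted p = 3.43e-06). KCNJ9, the remaining subunit of this kind, had no read in the 6 illuminated engineered libraries and at most 2.98 in the dark ones; it was too low to be tested in monoculture.

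KCNJ11, the pore of the ATP-sensitive channel that couples metabolism to membrane potential, stood at 475, 361 and 441 in Cry2 dark and fell to 10.9, 7.29 and 5.32 in Cry2 light. The fall was 54.4-fold (log2 -5.63 ± 0.21, adjusted p = 4.93e-12), the largest log2 fall among the 69 genes tested. KCNJ11 reached the minimum only through other groups, so it was low in illuminated engineered cells by that choice. The mCh dark libraries held 443, 391.7 and 469 and the mCh light libraries 8.77, 14.6 and 1.505 (log2 -5.91 ± 0.44, adjusted p = 2.36e-08). All 12 wild-type libraries lay between 360.2 and 509. ABCC8, the sulphonylurea receptor that surrounds this pore, fell less, from a mean of 101.5 ± 15.2 to 39.6 ± 4.15 in monoculture (log2 -1.33 ± 0.19, adjusted p = 2.55e-05) and from 96.2 ± 6.58 to 57.6 ± 17.3 in co-culture (log2 -0.77 ± 0.22, adjusted p = 0.00848). ABCC9, the other receptor, was below the minimum everywhere, with means of at most 5.16. KCNJ8, the other pore of such channels, was at 17.0, 2.83 and 23.8 in Cry2 dark and 41.6, 24.3 and 26.6 in Cry2 light, and did not pass the threshold (adjusted p = 0.0708 in monoculture and 0.260 in co-culture).

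Other inward rectifiers moved less. KCNJ10, the main glial rectifier, rose from 35.3, 24.04 and 47.6 to 110.4, 57.5 and 72.8 in monoculture (log2 1.15 ± 0.34, adjusted p = 0.00869) and from 27.4, 50.2 and 26.9 to 128, 126 and 90.3 in co-culture (log2 1.74 ± 0.29, adjusted p = 0.000125). KCNJ12, a strong rectifier of muscle, fell from 166, 137 and 167 to 50.7, 79.4 and 47.9 (log2 -1.42 ± 0.21, adjusted p = 2.72e-05); its near-identical copy KCNJ18 stayed below the minimum, and reads may have been split between them. KCNJ2 and KCNJ4, which also belong to the strong rectifiers, and KCNJ14 did not pass in engineered cells. Of the 11 rectifier genes, 2 rose and 3 fell of 10 tested in monoculture, and 2 rose and 4 fell of 11 in co-culture. The shares of all genes called there were 58.4% and 55.9%. KCNJ11, which is among those that fell, reached the minimum only through other groups.

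Of the two-pore-domain genes, whose products carry the leak current, 8 of 12 were lower and 2 higher in each culture. Among all genes, 30.4% were lower in monoculture and 28.7% in co-culture. The 8 include KCNK7 and KCNK9, which reached the minimum only through other groups and were low in illuminated engineered cells by that choice. The 2 that rose were KCNK13 and KCNK17. KCNK13, a leak channel inhibited by halothane, was at 14.4, 11.3 and 13.4 in Cry2 dark and 168, 221 and 176 in Cry2 light, a 14.5-fold rise (log2 3.75 ± 0.33, adjusted p = 9.31e-08). In sorted cells it went from 17.1, 16.7 and 13.4 to 279.7, 335 and 397 (log2 4.33 ± 0.32, adjusted p = 2.16e-08). KCNK17, an alkaline-activated leak channel at chr6:39299001-39314553, was at 115, 165 and 103 in the dark and 1375, 1416 and 1245 under light in monoculture, 10.5-fold higher (log2 3.42 ± 0.18, adjusted p = 2.31e-10). Its co-culture values were 97.6, 105 and 104, then 1135, 1367 and 1078 (log2 3.52 ± 0.17, adjusted p = 1.3e-10). Dark and light libraries of engineered cells did not overlap for either gene, and all wild-type libraries lay at dark levels, at most 17.6 for KCNK13 and 146 for KCNK17.

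KCNK5, an acid-sensitive leak channel of the same subfamily as KCNK17, lies 69550 bases from it on the same strand and moved the other way. Its values were 2498, 2307 and 2667 in Cry2 dark and 1082, 1108 and 1067 in Cry2 light (2.29-fold lower, log2 -1.20 ± 0.07, adjusted p = 1.3e-09). Co-cultured engineered cells went from 2623, 2489.5 and 2483 to 1081, 1221 and 1476 (log2 -1.02 ± 0.10, adjusted p = 5.46e-07). KCNK12, the close relative of KCNK13, also moved against its relative: it fell from 367, 369 and 394 to 17.2, 31.6 and 28.4 in monoculture (14.6-fold, log2 -3.86 ± 0.21, adjusted p = 3.54e-10) and from 394, 363 and 384 to 20.2, 36.4 and 16.6 in co-culture (log2 -3.99 ± 0.27, adjusted p = 6.43e-09). Thus in both of these subfamilies 1 gene rose and 1 fell, with no overlap between dark and light libraries.

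KCNK1 and KCNK6, weakly conducting leak channels, fell by similar amounts. KCNK1 went from 585, 525 and 534 to 129, 114 and 111 (log2 -2.20 ± 0.11, adjusted p = 1.17e-10), and KCNK6 from 1051, 845 and 893 to 213, 220.4 and 166 (log2 -2.22 ± 0.14, adjusted p = 2.08e-09). The stretch- and lipid-gated channels KCNK2 and KCNK10, whose promoter windows are printed above, fell 4.49-fold and 4.65-fold in monoculture, from 65.3, 82.0 and 49.1 to 19.0, 10.5 and 14.2 and from 142, 113 and 119 to 23.5, 25.9 and 31.1 (adjusted p = 2.51e-05 and 1.26e-06). In co-culture they fell 4.94-fold and 5.76-fold (adjusted p = 1.93e-05 and 2.15e-07). KCNK7 and KCNK9 fell as well, from dark means of 43.5 and 18.5; each kept under 10 in every illuminated engineered library. KCNK3 and KCNK15 did not pass in either culture.

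**Figure D2:**
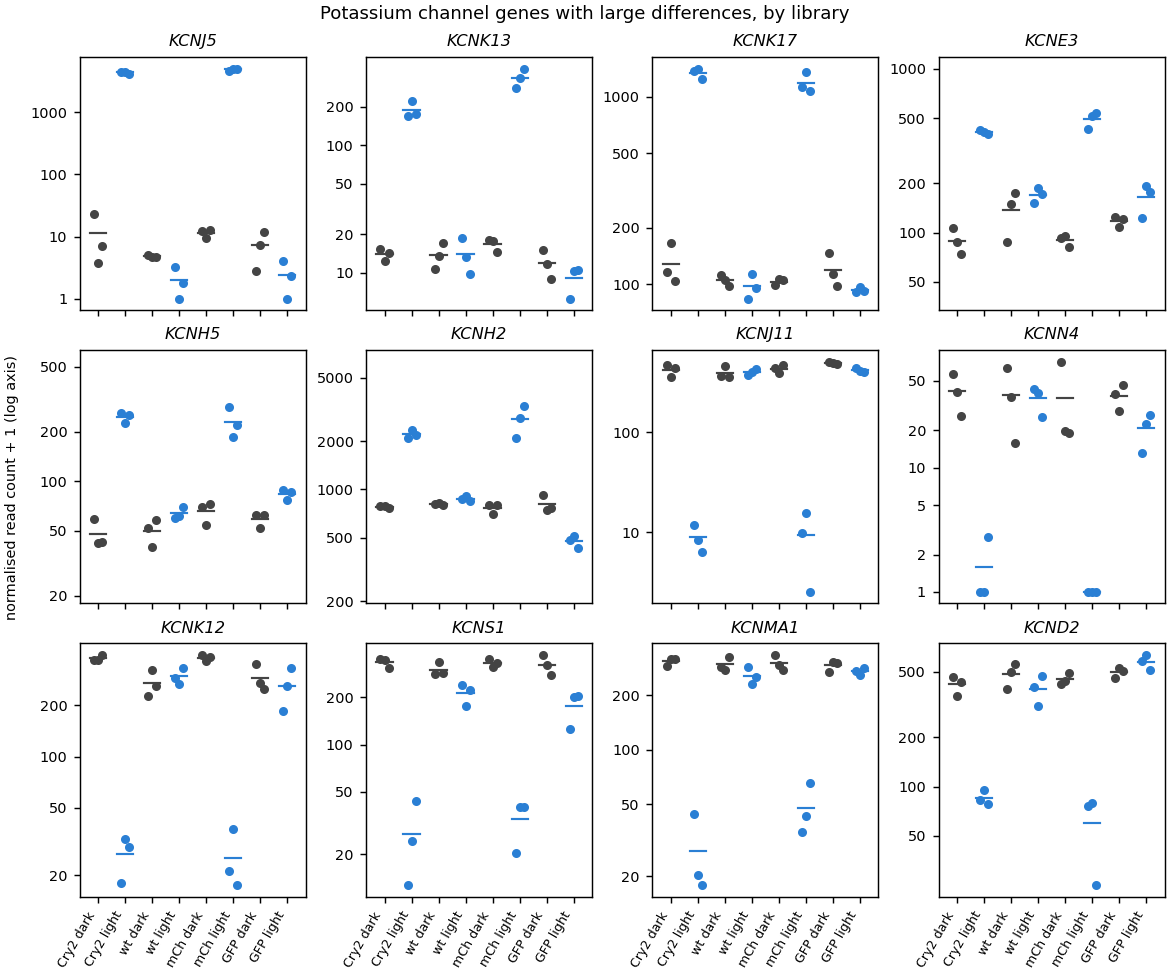
Each panel is 1 gene; dots are single libraries in the 8 groups (dark grey, dark; blue, light), lines are group means, and the log axis gives the normalised read count + 1. In all 12 panels the Cry2 light and mCh light libraries lie apart from the dark libraries of the same cells, and for KCNJ5 the lowest of them is at 4153 and the highest other library at 22.2.

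Voltage-gated pore subunits moved in both directions. KCNB2, a slow delayed rectifier, rose from 30.0, 35.3 and 11.9 in Cry2 dark to 79.6, 109 and 91.4 in Cry2 light, without overlap (log2 1.94 ± 0.35, adjusted p = 0.000199). Co-culture gave the same direction, with log2 1.19 ± 0.25 (adjusted p = 0.000722).

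Among the Kv4 genes, which carry the fast A-type current, KCND2 fell from 467, 358 and 436 to 81.4, 94.0 and 77.2 (log2 -2.30 ± 0.18, adjusted p = 2e-08) and in co-culture from 421, 438 and 494 to 75.4, 78.4 and 24.1 (log2 -3.08 ± 0.32, adjusted p = 8.11e-07). KCND1 rose, from 531, 564 and 518 to 750.1, 850.0 and 779 (1.47-fold, log2 0.56 ± 0.10, adjusted p = 0.000173), and in co-culture by 0.78 ± 0.14 (adjusted p = 0.000164). KCND3 stayed between 16.3 and 37.9 in the 6 engineered monocultures and did not pass. Partners of the Kv4 pore moved in both directions. KCNIP1 and KCNIP2, calcium-binding subunits of this channel, fell 7.19-fold and 3.50-fold in monoculture (adjusted p = 1.53e-06 and 5.76e-07), and DPP6, its transmembrane partner, fell from a mean of 507 ± 43.1 to 43.3 ± 12.3 (log2 -3.56 ± 0.21, adjusted p = 7.55e-10). KCNIP3, which also acts as a calcium-dependent repressor of transcription, rose 1.75-fold (log2 0.80 ± 0.21, adjusted p = 0.00421). DPP10, the other transmembrane partner, had means of 366 ± 44.3 and 365 ± 77.6 and did not pass.

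KCNC4, a fast-inactivating Kv3 channel, fell from 1232, 961 and 989.7 to 388, 386 and 271 (log2 -1.62 ± 0.17, adjusted p = 6.88e-07). Of the Kv1 genes, KCNA2, the axonal low-threshold channel, rose from 27.4, 15.6 and 53.6 to 57.0, 77.0 and 56.8 (adjusted p = 0.0309), and KCNA3, best known from T lymphocytes, fell from 24.8, 19.8 and 7.44 to 1.81, 5.67 and 2.66 (adjusted p = 0.00419). Dark and light libraries did not overlap for either gene in monoculture, but the margin was small. The rise of KCNA2 lost the threshold without Cry2 dark replicate 1 or 2 or Cry2 light replicate 2 (adjusted p up to 0.159) and at equal depth (adjusted p = 0.0567); in co-culture it was 1.39 ± 0.39 (adjusted p = 0.00654). In co-culture KCNA3 was near the threshold (adjusted p = 0.042, overlapping groups) and lost it in 11 of the alternatives tried.

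Kv7 genes carry the M-current of neurons and the slow repolarising current of the heart. KCNQ1 fell from 229.8, 182 and 193 to 24.4, 35.7 and 45.3 (5.75-fold, log2 -2.53 ± 0.23, adjusted p = 1.78e-07) and in co-culture from 184, 181 and 204 to 31.6, 46.9 and 84.3 (log2 -1.90 ± 0.29, adjusted p = 5.01e-05). Its exons overlap KCNQ1OT1 and KCNQ1-AS1 on the opposite strand, which had means of 114 and 7.23 in Cry2 dark and 113 and 23.8 in Cry2 light. Of the auxiliary subunits of these channels, KCNE3, which keeps KCNQ1 open in epithelia, rose from 106, 86.2 and 72.9 to 419.8, 409 and 400.2 (4.64-fold, log2 2.22 ± 0.23, adjusted p = 5.48e-07) and from 91.6, 94.0 and 80.7 to 427, 518 and 534 in co-culture (log2 2.46 ± 0.19, adjusted p = 2.67e-08). KCNE1, KCNE2 and KCNE4 were among the genes below the minimum.

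The EAG, ERG and ELK genes had 2 members up and 3 down of 8 in each culture, where 58.4% (monoculture) and 55.9% (co-culture) of all genes were called. KCNH4, which is among the 3 that fell, reached the minimum only through other groups. KCNH2 (ENSG00000055118, chr7:150944961-150978315), the ERG channel that repolarises the heart, was at 783, 789 and 766 in Cry2 dark and 2082, 2342 and 2195 in Cry2 light (2.83-fold, adjusted p = 6.94e-11), and at 804, 698 and 801 and then 2082, 2799.6 and 3341 in sorted cells (log2 1.81 ± 0.15, adjusted p = 7.04e-08). KCNH5, an EAG channel of brain, rose from 57.4, 41.0 and 41.7 to 259, 227 and 255 (log2 2.39 ± 0.22, adjusted p = 1.84e-07) and in co-culture from 68.5, 53.0 and 72.0 to 285, 184 and 219.7 (log2 1.81 ± 0.21, adjusted p = 3.72e-06). In contrast KCNH6, a second ERG gene, fell from 189, 158 and 195 to 79.6, 89.1 and 43.5 (log2 -1.40 ± 0.23, adjusted p = 7.01e-05), and KCNH4, an ELK gene, from 39.2, 32.5 and 25.3 to 1.81, 4.86 and 0 (log2 -3.69 ± 0.55, adjusted p = 2.97e-05). KCNH8, also an ELK gene, fell from a mean of 239.8 ± 51.4 to 161.4 ± 19.0 (adjusted p = 0.0163), a call lost without Cry2 dark replicate 1 (adjusted p = 0.0956) or Cry2 light replicate 1 (adjusted p = 0.0583). KCNH1, KCNH3 and KCNH7, each under 30 in every engineered library, did not pass in either culture.

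Silent Kv subunits assemble with other Kv subunits and alter their gating, and 4 of 6 fell in each culture. The share of all genes lower was 30.4% in monoculture and 28.7% in co-culture. KCNF1, which is among the 4, reached the minimum only through other groups. KCNS1 went from 349, 344 and 307 to 11.8, 23.5 and 42.6 in monoculture (12.8-fold, log2 -3.80 ± 0.31, adjusted p = 4.92e-08) and from 347, 309 and 328 to 19.3, 38.8 and 39.1 in co-culture (log2 -3.37 ± 0.26, adjusted p = 3.57e-08). KCNF1 fell from 111, 83.4 and 156 to 2.71, 18.6 and 6.21 (log2 -3.82 ± 0.45, adjusted p = 2.67e-06), and KCNG3 from 136, 124 and 132 to 19.0, 6.48 and 23.1 (log2 -3.10 ± 0.40, adjusted p = 7.06e-06). KCNS3 fell from 962, 1036 and 1011 to 375, 433 and 372 (log2 -1.35 ± 0.08, adjusted p = 1.64e-09). In none of these did dark and light libraries of engineered cells overlap. KCNG1 rose by 0.28 ± 0.09 in monoculture (log2; adjusted p = 0.0119), from 1593, 1323 and 1671 to 1801, 1912 and 1821, and did not pass in co-culture (0.17 ± 0.15, adjusted p = 0.338); without Cry2 dark replicate 2 the monoculture value was 0.18 with an adjusted p of 0.0746. KCNV1 did not pass.

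Calcium- and sodium-activated channels contained no gene that rose, with 5 of 6 lower in monoculture and 4 of 6 in co-culture. Of all genes, 30.4% and 28.7% were lower in these comparisons. KCNN4, which is among those that fell, reached the minimum only through other groups. KCNMA1, the pore of the large-conductance BK channel, fell from 289.8, 318 and 316 to 43.4, 19.4 and 16.9 (11.6-fold, log2 -3.61 ± 0.26, adjusted p = 1.06e-08) and from 334, 293 and 274 to 34.2, 42.1 and 64.7 in sorted cells (log2 -2.70 ± 0.20, adjusted p = 2.1e-08). KCNN4, the intermediate-conductance channel of blood cells and epithelia, was at 56.1, 39.6 and 25.3 in Cry2 dark, and the 3 Cry2 light libraries together held 2 reads (adjusted p = 1.79e-06). The mCh dark libraries held 70.2, 18.6 and 18.2 and the mCh light libraries no read, which is at least 36.2-fold lower when set against 3 reads over the group (adjusted p = 8.05e-07). Without mCh dark library a this bound was 18.7-fold, and without mCh light library a or b it was 22.6-fold or 21.5-fold. KCNN2, a small-conductance channel, fell from 359, 419.9 and 418 to 139, 125 and 127 (log2 -1.60 ± 0.13, adjusted p = 5.91e-08). KCNT2 fell by 0.66 ± 0.21 (log2; adjusted p = 0.0149), which was lost without Cry2 dark replicate 2 (adjusted p = 0.0517); its call in co-culture was lost without mCh dark b or c or mCh light b or c (adjusted p up to 0.0579). KCNN1 fell by 0.57 ± 0.16 (adjusted p = 0.00599); in co-culture KCNN1 did not pass (-0.17 ± 0.21, adjusted p = 0.518). KCNN3 held means of 184 ± 7.42 and 180.1 ± 29.3 and did not pass. KCNT1, a sodium-activated channel, was too low to be tested, at 2.61, 11.3 and 13.4 in Cry2 dark and 0, 0 and 0.887 in Cry2 light.

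Around the falling BK pore, its partners went in different directions. LRRC55, a gamma subunit that shifts BK activation to lower voltages, rose from a mean of 89.7 ± 4.17 to 1032 ± 73.8 in monoculture (11.5-fold, log2 3.51 ± 0.17, adjusted p = 7.72e-11) and from 103 ± 23.9 to 1215 ± 90.1 in co-culture (log2 3.57 ± 0.20, adjusted p = 7.26e-10). LRRC38, a second gamma subunit, was low already in the dark, with means of 11.7 in Cry2 dark and 8.41 in mCh dark. It fell from 24 reads over Cry2 dark to 1 over Cry2 light, and from 30 over mCh dark to 2 over mCh light. Of the beta subunits, KCNMB4 fell from 1209, 1212 and 1217 to 821, 743 and 687 (log2 -0.70 ± 0.09, adjusted p = 5.49e-06). KCNMB1, the beta subunit of smooth muscle, was at 56.5, 39.1 and 54.6 in mCh dark and 152, 146 and 176 in mCh light (log2 1.65 ± 0.28, adjusted p = 0.000114), but at 66.6, 50.9 and 95.2 and then 64.2, 119.9 and 66.5 in monoculture, where the groups overlapped (0.22 ± 0.33, adjusted p = 0.590). KCNMB1 lies within the span of KCNIP1 on the other strand. The difference between these responses was 1.43 ± 0.43 and did not pass the threshold after adjustment (limma over all 24 libraries, adjusted p = 0.535).

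Of the 11 auxiliary subunit genes, 3 rose and 5 fell in monoculture and 4 rose and 4 fell in co-culture. Light changed 58.4% and 55.9% of all genes in these comparisons. KCNAB1, which is among those that fell, reached the minimum only through other groups. Beta subunits of Kv1 channels resemble oxidoreductases. KCNAB1 fell from 31.3, 26.9 and 32.7 to 0.905, 8.10 and 2.66 (log2 -2.97 ± 0.52, adjusted p = 0.000154), and from 11.1, 40.0 and 26.1 to 3.51, 3.23 and 0 in co-culture (log2 -3.15 ± 0.56, adjusted p = 0.00021). KCNAB3 passed in monoculture (-0.61 ± 0.20, adjusted p = 0.0157; 0.0667 without Cry2 light replicate 2) and not in co-culture (-0.42 ± 0.21, adjusted p = 0.103), and KCNAB2, with means of 602 ± 72.4 and 521.0 ± 30.0 in monoculture, and KCNMB3, with 40.2 ± 3.64 and 59.05 ± 4.35, passed in neither. KCNE5, an inhibitory partner of KCNQ1, rose from 333, 271 and 333 to 431, 428 and 404 (adjusted p = 0.0093), but without Cry2 dark replicate 2 its adjusted p was 0.0508. Its exons overlap those of ACSL4 on the same strand, which stood at 6326 and 7032 in the same groups.

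The responses of engineered cells in monoculture and in co-culture, which share no library, went in the same direction for 62 of the 69 genes tested in both. Of these, 45 passed in both, 12 higher and 33 lower, each in the same direction in both cultures. They were 93.8% of the genes called in monoculture and 95.7% of those called in co-culture, where over all genes 84.7% of monoculture calls were also called in co-culture. Some of the 33 lower genes, KCNJ11 and KCNN4 among them, reached the minimum only through other groups. Such genes were low in both illuminated engineered groups by that choice, so their agreement was partly fixed in advance. The shares were not computed without them, and no excess over all genes is read from them. KCNG1, KCNN1 and KCNAB3 passed in monoculture and not in co-culture, KCNJ3 and KCNMB1 the other way round, and 19 in neither. Across the 69 genes, which are not independent replicates, Pearson's r of the log2 differences was 0.966 and Spearman's rho 0.946; over all 19020 genes tested in both, r was 0.965. In the test of the difference between these responses, limma called 0 of 71 genes (0.064% of all genes called, 0.0246% higher and 0.0394% lower). An unadjusted p under 0.05 was found for 6 of the 71, against 1018 of all 20322 genes. The smallest p was that of KCNMB1, given above. edgeR and DESeq2 also called 0, against 0.0394% and 0.118% of all genes. Without mCh light library a, limma again called 0 channel genes. Then 14 of 71 had an unadjusted p under 0.05, as had 3580 of all 20246 genes. The share of all genes called was 0.395%, so the low background depends on that library. Culture, sorting and library set cannot be told apart in that test, and a p above the threshold does not show that the responses were equal.

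**Figure D3:**
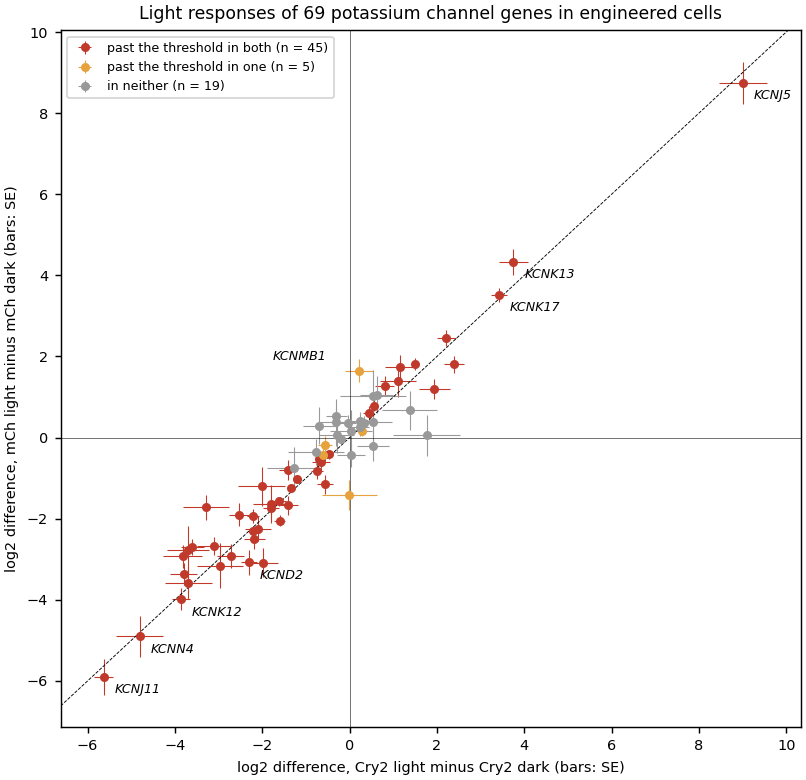
Each dot is 1 of 69 genes tested in both cultures: its log2 light difference in Cry2 monocultures (x) and in mCh cells sorted from co-culture (y), with standard errors; the dashed line marks equal differences. The 45 genes past the threshold in both lie at the lower left or upper right, with KCNJ5 at the upper and KCNJ11 at the lower end of both axes.

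Light also changed which transcripts were most abundant. Divided by the exon length of the gene in kilobases, the highest level in the 6 groups other than illuminated engineered cells was that of KCNK5, at 663 per kilobase in Cry2 dark and 608 in wt dark. In Cry2 dark it was followed by KCNS3 at 320, KCNG1 at 281 and KCNMB4 at 249, each below the level of KCNK5. KCNJ5 stood at rank 66 of 71 in Cry2 dark, with 1.69 per kilobase, and at rank 1 in Cry2 light, with 718; in mCh cells it went from rank 66 to rank 1, at 798. KCNK17 took rank 2 in both illuminated engineered groups (619 and 549), from ranks 18 and 21, and KCNH2 rank 3 (375 and 466). KCNK5 then held rank 5 in Cry2 light and rank 6 in mCh light. KCNJ11 went from rank 9 in Cry2 dark to 57. Exon lengths are the union of all GENCODE 29 exons, which may be longer than the transcripts used.

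**Figure D4:**
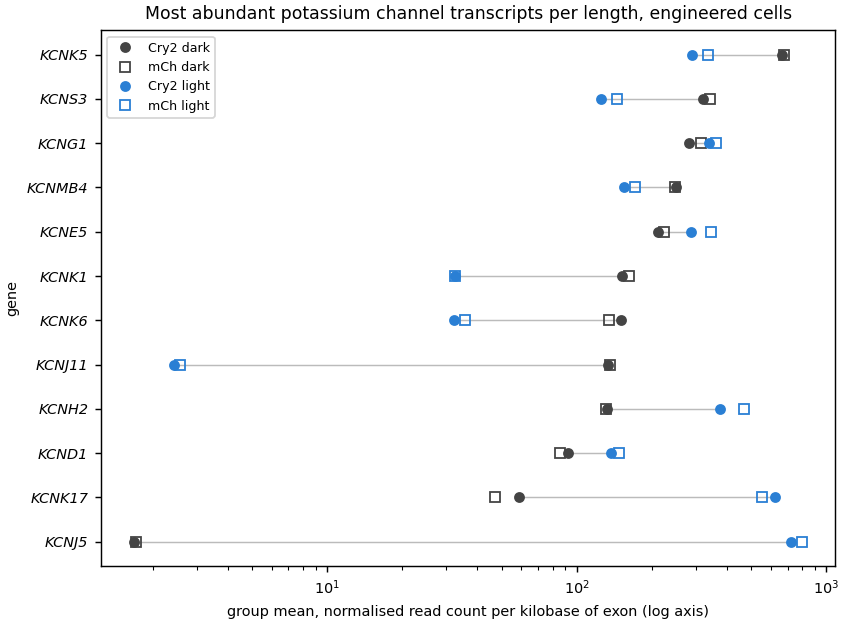
Group means per kilobase of exon (log axis) in Cry2 (filled circles) and mCh cells (open squares), in the dark (grey) and under light (blue), for genes in the top 10 (1 left out) of Cry2 dark or of mCh light. Grey lines join the Cry2 dark and light means; KCNJ5, KCNK17 and KCNH2 move right, KCNJ11 moves furthest left.

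Illumination of wild-type monocultures gave no call among the channel genes. In wt light against wt dark, limma called 0 of 69 (0.072% of all genes, 0.0309% higher and 0.0411% lower); edgeR and DESeq2 also called 0, where they called 0.242% and 1.49% of all genes. By limma, 8 had an unadjusted p under 0.05, led by KCNH7, against 2559 of all 19444 genes. For 14 channel genes the groups did not overlap, against 17.8% of all genes. The Cry2 light effect differed from the wt light effect for 42 genes, 10 higher and 32 lower, where 47.8% of all genes passed (22.8% higher and 25.0% lower), and the mCh effect from the GFP effect for 14 higher and 28 lower, where 40.5% passed (19.5% higher and 21.0% lower). In the dark, 10 channel genes had an unadjusted p under 0.05 for Cry2 against wt, as had 3317 of all 19444 genes. After adjustment this comparison had 2 calls of 69, 1 higher and 1 lower (3.6% of all genes called, 2.27% higher and 1.33% lower). The higher one was KCNH7, an ERG gene, at 17.0, 12.7 and 29.8 against 8.26, 3.73 and 3.73, without overlap (log2 1.73 ± 0.43, adjusted p = 0.0396). It was lost by edgeR (adjusted p = 0.0699) and without wt dark replicate 2 or 3 or Cry2 dark replicate 1 or 3. KCNH7 shares exon sequence with GCA on the other strand, at means of 1367 and 1595 in these groups. In mCh dark against GFP dark, limma called 0 of 70 (0.797% of all genes, 0.453% higher and 0.345% lower). An unadjusted p under 0.05 was found for 5 of the 70, against 1098 of all 19436 genes. Here edgeR and DESeq2 also called 0, where they called 0.947% and 1.5% of all genes. The mCh and GFP libraries were sorted from the same mixtures, and the columns used here do not tie a library of one arm to one of the other, so the tests between these arms treated them as independent.

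Wild-type cells kept beside illuminated engineered cells changed in a few channel genes. In GFP light against GFP dark, 3 rose and 3 fell of 70 tested, where 4.6% of all genes passed (2.39% higher and 2.21% lower); 27 did not overlap, against 24.8% of all genes. KCNH2 fell from 924, 744 and 768 to 481, 511 and 428 (log2 -0.77 ± 0.15, adjusted p = 0.0072), the opposite of its rise in the engineered cells of the same co-cultures. KCNJ2, the classical inward rectifier that holds the resting potential, fell from 92.0, 102 and 107 to 19.5, 27.3 and 12.1 (5.11-fold, log2 -2.36 ± 0.30, adjusted p = 0.000245). Neither gene had overlapping groups, and both kept the threshold in all alternatives. Exons of KCNJ2 overlap the antisense gene KCNJ2-AS1, at means of 32.6 in GFP dark and 15.1 in GFP light.

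The other 4 calls were less stable. KCNJ4 fell from 159, 136 and 118 to 70.7, 83.8 and 56.6 (log2 -0.97 ± 0.21, adjusted p = 0.0153). KCNG3 rose from 158, 142 and 154 to 371, 353 and 282 (log2 1.14 ± 0.23, adjusted p = 0.00953), whereas it fell in engineered cells. KCNMB4 rose from 1200.1, 1173 and 1125 to 1552, 1458 and 1532 (log2 0.38 ± 0.08, adjusted p = 0.019), also against its fall there. KCNH1, an EAG gene near the minimum, was at 0.885, 0.898 and 2.15 and then 10.5, 7.54 and 17.5, which rests on 5 and 35 reads (adjusted p = 0.0106). Each of these 4 lost the threshold when 1 library was left out: KCNJ4 without GFP dark a or b or GFP light c (adjusted p up to 0.0792), KCNG3 without GFP dark b or GFP light b, KCNH1 without GFP dark b or GFP light c, and KCNMB4 without GFP dark b or c or any GFP light library.

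The light effect in GFP cells was compared with that in wt monocultures, which had received the same light without engineered neighbours. It differed for KCNH2, by -0.88 ± 0.17 (adjusted p = 0.00355), the only call among 71 genes where 2.3% of all genes passed (1.41% higher and 0.886% lower); wt dark held 812, 824 and 799 and wt light 866, 908 and 851. For KCNJ2 the difference of -1.53 ± 0.45 did not pass (adjusted p = 0.0818), and KCNJ2 was at 114, 112 and 68.3 in wt dark and 51.3, 37.1 and 78.3 in wt light, with an adjusted p of 0.308. The other 4 did not pass either. In GFP light the primitive streak markers summed to 653 to 711, against 206 to 249 in GFP dark and 118239 to 138661 in mCh light; TBXT, MIXL1 and EOMES rose, and MSGN1, TBX6 and MESP1 did not pass. Of the 6 pluripotency markers, NANOG rose from 4006 to 6193 and TDGF1 fell from 19171 to 15052 (adjusted p = 0.000757 and 0.0485), and the sum was 223020 to 231234 in GFP dark and 230216 to 254879 in GFP light. The skeletal muscle markers summed to 397 to 487 and 186 to 199, and ACTA1 fell. The cardiomyocyte markers summed to 404 to 438 and 677 to 763, but none of the 4 tested passed; the sum followed RYR2 (224 to 517, adjusted p = 0.102), while MYL7 stood at 55.7 and 38.0. No neural, endothelial or fibroblast marker passed. Their part in the results on GFP cells was not tested. KCNJ5, the channel gene highest in illuminated engineered cells, was at 3.01, 0 and 1.35 in GFP light, and the Cry2 construct at 358 to 422, against 349 to 398 in GFP dark.

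**Figure D5:**
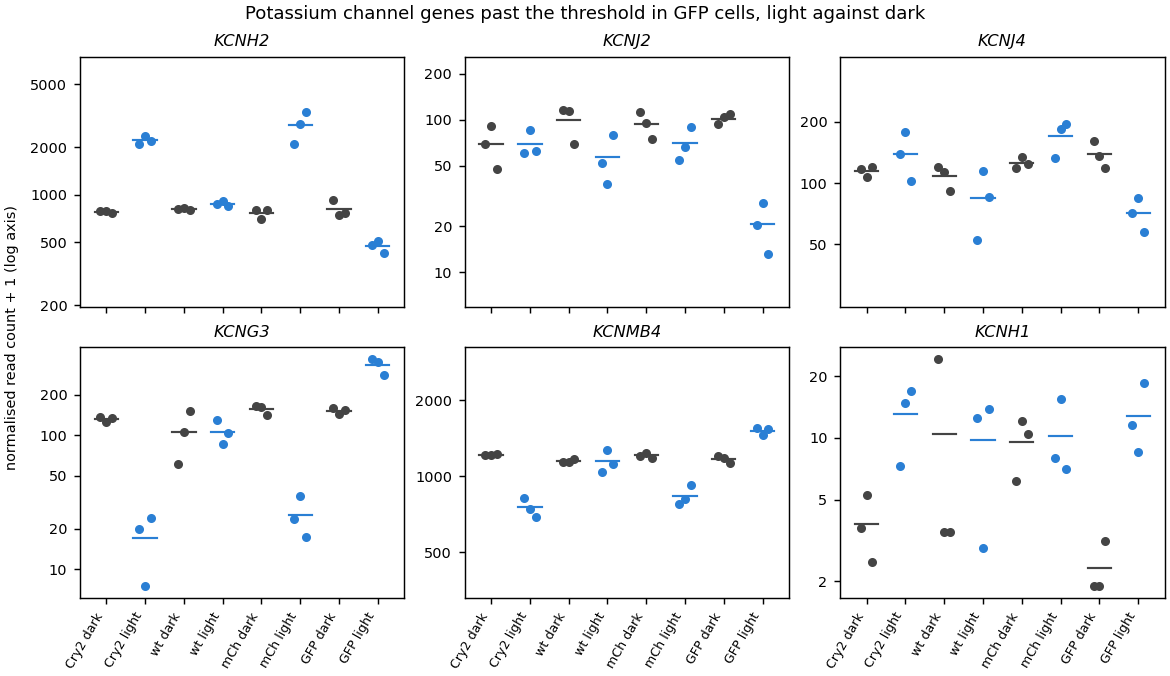
The 6 genes past the threshold in GFP light against GFP dark; each panel shows single libraries of all 8 groups (dark grey, dark; blue, light) with group means, on a log axis of normalised read count + 1. KCNH2 is low in GFP light and high in mCh light, and KCNG3 and KCNMB4 show the reverse.

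Other genes of potassium transport gave a mixed picture in engineered cells. Of 9 pump subunits, 2 rose and 4 fell in monoculture, where 58.4% of all genes were called, and 2 rose and 5 fell in co-culture, where 55.9% were, so no result about the pumps as a group is read from these counts. ATP1B2, a beta subunit of the sodium pump, fell 15.2-fold (adjusted p = 3.98e-10). ATP12A, the non-gastric proton-potassium pump, fell 5.28-fold (adjusted p = 1.43e-06). Among cotransporters, SLC12A2, which brings sodium, potassium and chloride into cells, rose from 528 ± 69.1 to 1101 ± 121 (adjusted p = 7.75e-06). In all, 2 rose and 1 fell of 5 tested in monoculture, and 2 rose of 5 tested in co-culture. With 58.4% and 55.9% of all genes called there, no result about the cotransporters as a group is read from these counts.

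HCN channels are pacemaker channels that pass both potassium and sodium and are close relatives of the Kv family; they are listed here as relatives outside the KCN names. HCN4 fell from 1238 ± 69.02 to 248 ± 24.9 (adjusted p = 3.21e-10) and HCN2 from 162 ± 39.3 to 60.1 ± 3.17 (adjusted p = 4.15e-05). HCN3 rose in monoculture, from 286 ± 26.2 to 371 ± 20.05 (adjusted p = 0.0154 there, and 0.671 in co-culture). Partners outside the KCN names counted 1 higher and 3 lower, of 6 tested in monoculture and of 5 in co-culture. In the same comparisons 58.4% and 55.9% of all genes were called, so no result about the partners as a group is read from these counts. None of the pumps, cotransporters, partners or HCN genes passed in wt light against wt dark or in GFP light against GFP dark, where 0.072% and 4.6% of all genes passed, so that few or none would be called at the background share.

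In 5 pairs, potassium channel genes lay within 200 kb of each other. Besides KCNK5 and KCNK17, and KCNIP1 and KCNMB1, these were KCNA2 and KCNA3 at a distance of 40990 bases, KCNJ9 and KCNJ10 at 11086 and KCNA1 and KCNA5 at 125732. KCNA2 rose and KCNA3 fell in engineered cells under light, but the calls of KCNA2 in monoculture and KCNA3 in co-culture were unstable, as given above. KCNJ10 rose beside KCNJ9, which had no read in the 6 illuminated engineered libraries and at most 2.98 in the dark ones. Both KCNA3 and KCNJ9 reached the minimum only through other groups. KCNA1 and KCNA5 did not pass in either culture. In 17 of the 71 genes, exons overlapped those of another gene of the table, on the opposite strand in 15 and on the same strand in 4, so their counts are uncertain; the sources used here do not say whether reads were counted by strand.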

How the data were processed

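RNA was read from 24 libraries of H9 cells with a TruSeq Stranded mRNA kit, per the labels' protocols. The deposited table holds, for each Ensembl gene, a normalised signal per library. The submitters' processing notes name FastQC, cutadapt, Bowtie2, STAR, HTSeq and DESeq and the build GRCh38, while a header of the deposited library table names another build, so the build of the reads is unsettled and coordinates are those of GENCODE 29 (GRCh38). The values deposited by the authors are read counts divided by 1 factor per library: 100.0% were whole reads within 0.01 once multiplied back. Read counts per library, percent GC and the RNA integrity score were taken from the deposited library table, per the file headers. The genotype tags of the monocultures are the reverse of their titles; the titles were used, and construct counts fit them.

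Genes were tested if 3 or more of the fitted libraries reached a value of 10, with limma 3.58.1 (limma-trend) on log2(value + 1), in R 4.3.3, with Benjamini-Hochberg adjustment over all genes and a threshold of 0.05. The 12 monoculture libraries were fitted together, the 12 co-culture libraries together, and all 24 for differences between cultures. Log2 differences are on the log2(value + 1) scale and understate changes of low genes. edgeR 4.0.16 and DESeq2 1.42.0 on the recovered reads, other filters and pseudocounts, reads thinned to equal depth, and leaving out each library were alternatives. Scripts were tested on simulated data. Floors and depths cover counting error only. Values in every library were to be given for up to 15 genes per direction and comparison, those with the largest log2 change that passed the threshold, did not overlap and averaged 50 or more in the higher group, and for genes of the same subfamilies; where fewer than 20 passed, any of these. Some lower genes, and partners that did not pass, are named outside that rule and were chosen after their values were seen. Quality values of the library table were used for the monocultures. Members, lists and rules were chosen with earlier results of these data known. A few genes that belong to the counts are not reported here by name or value.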

Additional observations from a re-analysis of the deposited data

Results flagged for a closer look

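The light response of KCNH2 differed between GFP cells sorted from co-culture and wild-type monocultures by -0.88 (log2; limma over all 24 libraries), which is a test of the difference itself. KCNH2 fell in GFP light and was called neither way in wt light. Culture, sorting and library set cannot be told apart in this comparison.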

How the results depend on the processing

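No result reversed under any alternative. Of the genes called, 42 of 48 in Cry2 light against Cry2 dark, 45 of 47 in mCh light against mCh dark, 2 of 6 in GFP light against GFP dark and 0 of 2 in Cry2 dark against wt dark passed under every alternative in which they were tested. Genes too low for the filter at a value of 50, such as KCNA3, were not tested with it. For such genes these counts leave that alternative out. For Cry2 dark against wt dark, the 1 gene higher became 0 with no filter, with a filter at 50, with edgeR and without the lowest-GC and lowest-RIN libraries, 2 with DESeq2 and 5 with only the groups compared; the 1 lower became 0 with no filter, with edgeR, with the replicate block and without the lowest-GC and lowest-RIN libraries; leaving out 1 library gave 0 to 1 for both. For GFP light against GFP dark, the 3 lower became 7 with DESeq2 and 5 with thinned reads, and leaving out 1 library gave 0 to 3 higher. For the GFP light effect minus the wt light effect, DESeq2 gave 3 higher and 2 lower, and leaving out 1 library gave 0 to 1 higher and 1 to 2 lower. Leaving out the third light library of each co-culture arm, chosen after seeing the data, moved no count by over 1.5 times, and neither did leaving out genes that reach the minimum only through other groups, also chosen after seeing the data, although the medians then came to -0.30 in monoculture and -0.19 in co-culture. The cause was not tested. In monoculture, deviations of same-numbered libraries correlated at -0.061 to 0.058, so no deviation shared by number was seen. These values cannot show whether the numbers pair the samples. With the replicate block, Cry2 light against Cry2 dark kept counts of 13 higher and 35 lower. No paired analysis was possible for the co-cultures because their columns carry no replicate number, although both arms came from the same mixtures; tests between the arms take no account of this. Genes with few reads, such as KCNH1, KCNJ9 and KCNT1, are limited by depth.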
